A study of Mus musculus with 13 samples.

Results

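C/EBPα candidate regions at promoters are the regions of the deposited list for LSK cells whose centre lay within 1000 bp of the transcription start site (TSS) of a protein-coding gene. For each gene the TSS was that of the transcript with the longest genomic span in the annotation of mm9, and each region was assigned to its nearest TSS. Of the 17899 candidate regions, 638 met this rule (3.56%, 95% exact binomial interval 3.30 to 3.85%). The number depended on the rule, with 1071 for the TSS of any transcript and 346 where the TSS had to lie between start and end.

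The study mapped binding of C/EBPα in LSK cells and in myeloid progenitors by ChIP-seq, in which DNA fragments pulled down with an antibody are sequenced. LSK cells are sorted from mouse bone marrow as negative for lineage markers and positive for Sca-1 and Kit, a mixture of stem cells and multipotent progenitors. Of the 13 samples, 1 was used, a library of LSK cells with an antibody to C/EBPα, and the other 12 were not analysed here. The labels of this library name the strain C57BL/6 with floxed Cebpa and Mx1Cre, a Cre that interferon signalling switches on, and give no genotype. Histone mark libraries labelled wild type and knock out carry the same strain label. The remaining LSK library of C/EBPα, titled a replicate, comes from mice with floxed Cebpa without Mx1Cre.

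The list is the candidate stage of the authors' peak calling, before any of their later filters. In the paper, those filters required presence in both C/EBPα samples and removed regions with high IgG, and only a small part of the candidates remained. Which of the promoter regions remained was not examined here. Each region carries the authors' score, a MACS p-value as negative log10 times 10, and the lowest scores stand at 50, a p-value of 1e-05. Read numbers are not part of the list, and the depth of the library was not analysed here. No value was checked against the library titled a replicate, since 1 library was used. The intervals given are exact binomial (Clopper-Pearson) intervals at 95% that cover counting error only. The LSK label could not be checked, since binding does not measure expression. None of the marker genes Kit, Ly6a, Cd34, Flt3, Slamf1 and Cd48 had a candidate region within 1000 bp of its TSS, and the nearest regions lay between 10709 bp (Cd34) and 140505 bp (Kit) away.

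C/EBPα is a basic leucine zipper transcription factor that drives granulocyte and monocyte differentiation and is also active in stem cells. It binds DNA as a dimer, with a palindromic consensus, and forms dimers with other family members and with ATF4, the effector of the integrated stress response. Promoters of mammals fall into those inside CpG islands, typical of widely expressed genes, and CpG-poor ones, typical of tissue-specific genes. Bidirectional promoters lie between neighbouring genes that are transcribed away from each other, and most of them are CpG islands.

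The sequences around C/EBP words upstream of TSSs are shown because they carry the highest scores of regions that have such a word near their centre. The word searched was TTGCNNAA or TTACNNAA on either strand (N is any base), so that a word in capitals may be its reverse complement, within 70 bp of the region centre. Sequences are from mm9 (NCBIM37), written 5′ to 3′ on the strand of the gene, with the word in capitals. They lie upstream of the annotated TSS of the gene named. TTGCGCAA, the palindrome of the consensus, is in the sequences of Cotl1, Ndrg1, Prmt3 and Gtf2f1.
Cotl1, chr8:122364543-122364594, minus strand: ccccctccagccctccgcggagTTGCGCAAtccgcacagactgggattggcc
Rpia, chr6:70742227-70742259, minus strand: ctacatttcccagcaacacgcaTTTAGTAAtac
Ndrg1, chr15:66801356-66801407, minus strand: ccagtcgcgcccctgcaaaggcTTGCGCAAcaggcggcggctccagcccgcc
Prmt3, chr7:57033647-57033698, plus strand: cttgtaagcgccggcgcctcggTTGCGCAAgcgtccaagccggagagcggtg
Rnf149, chr1:39634379-39634430, minus strand: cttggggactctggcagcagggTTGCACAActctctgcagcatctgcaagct
Srsf2, chr11:116714483-116714534, minus strand: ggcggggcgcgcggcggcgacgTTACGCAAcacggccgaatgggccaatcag
Abhd11, chr5:135484956-135485007, plus strand: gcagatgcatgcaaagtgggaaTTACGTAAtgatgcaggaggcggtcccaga
Gtf2f1, chr17:57150942-57150993, minus strand: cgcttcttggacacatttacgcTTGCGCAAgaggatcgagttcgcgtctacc

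Ikzf5 is shown with the whole stretch of 79 bp between its TSS and that of Acadsb, which is transcribed the other way, as an example of a bidirectional promoter with a C/EBP word (capitals). The word starts 15 bp upstream of the Ikzf5 TSS.
Ikzf5, chr7:138554036-138554114, minus strand: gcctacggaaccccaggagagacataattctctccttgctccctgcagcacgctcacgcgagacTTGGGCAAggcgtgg

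A pair of promoters with high scores shows the range of CpG content, with each CpG in capitals. The stretch of 120 bp at Rad23b, the promoter region with the highest score, holds 17 CpGs. That at Fut7, the CpG-poor promoter with the highest score, holds 2 CpGs in the same length, the first of them inside the word TTGCGCAA.
Rad23b, chr4:55362669-55362788, plus strand: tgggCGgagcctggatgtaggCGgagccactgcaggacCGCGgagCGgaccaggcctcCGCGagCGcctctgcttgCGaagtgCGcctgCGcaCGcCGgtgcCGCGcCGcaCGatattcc
Fut7, chr2:25278667-25278786, plus strand: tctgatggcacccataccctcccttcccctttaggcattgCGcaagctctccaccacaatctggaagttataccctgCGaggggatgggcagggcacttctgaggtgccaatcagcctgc

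Promoters took up a growing share of the list as the score rose. Below a score of 100, 404 of 14269 regions lay at promoters (2.83%, 2.57 to 3.12%), and from 100 to 150 the share was 3.24% (2.62 to 3.95%). Between 150 and 200 it reached 10.1%, between 200 and 300 20%, between 300 and 500 28.1%, and from 500 upwards 40 of 97 regions (41.2%, 31.3 to 51.7%). For comparison, 1.66% of the sequenced bases of the same 21 chromosomes lie within 1000 bp of such a TSS. Promoter regions made up 41 of the top 100 candidates by score.

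**Figure D1:**
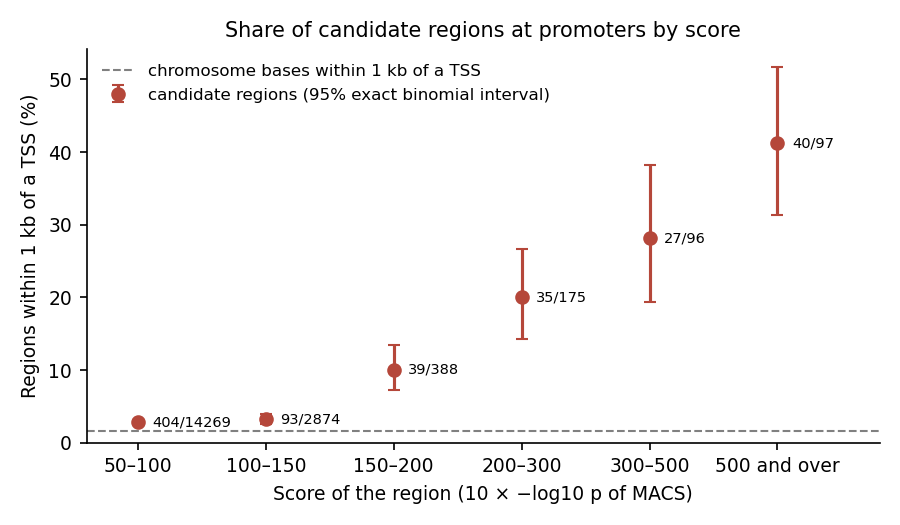
Share of candidate regions with a centre within 1 kb of a TSS (y axis, percent) by the score of the region (x axis); points are shares, bars are 95% exact binomial intervals, labels give promoter regions over all regions, and the dashed line is the share of chromosome bases within 1 kb of a TSS (1.66%). The share stays near 3% up to a score of 150 and reaches 41.2% from 500 upwards.

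The median score of the promoter regions was 81.9, with quartiles of 63.1 and 134, against 73.5 (60.8 and 93.3) for the other 17261 candidates. Their median width was 630 bp, against 587 bp. A score of at least 200 was carried by 102 promoter regions (15.99%, 13.2 to 19.1%), against 2.06% of all candidate regions and 2.77% of the 1229 regions between 1 and 5 kb from a TSS. Most promoter regions, 404 or 63.3%, scored under 100.

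The 20 promoter regions with the highest score lay at genes of varied functions. Rad23b, which encodes a partner of the damage sensor XPC in nucleotide excision repair, had the region with the highest score, 2408, and only 1 candidate of the whole list scored higher. Its centre lay 186 bp upstream of the TSS, and its only C/EBP word, TTGCGCAA, starts 264 bp upstream. The gene annotated as 5830418K08Rik followed with 1905, and Cotl1, which encodes an actin-binding protein of blood cells, with 1896. Brp44, a subunit of the mitochondrial pyruvate carrier, scored 1757, and Rpia, an isomerase of the pentose phosphate pathway, 1659.5.

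Fut7, the fucosyltransferase that makes selectin ligands on white blood cells, had a score of 1591. Man1b1, a mannosidase of the endoplasmic reticulum, scored 1510.3 and Ndrg1, a gene of stress and differentiation responses, 1506. Prmt3, a protein arginine methyltransferase, scored 1250.3 and Rnf149, a ubiquitin ligase, 1176. RNA-related genes in this group were Srsf2, a splicing factor (1143), Ssu72, a phosphatase of the RNA polymerase II tail (1071), and Rbm39, an RNA-binding splicing cofactor (912). Dclre1c, the nuclease Artemis that opens hairpins during V(D)J recombination, scored 1029.

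Further members of this group were Ikzf5, an Ikaros family zinc finger gene, with 986, Abhd11, a hydrolase, with 931, and Abcc5, an export pump, with 920. Plscr4, of the phospholipid scramblase family, had 767, and Iars, the isoleucyl-tRNA synthetase, 727. In 16 of these 20 regions the centre lay within 250 bp of the TSS, and in 14 it lay upstream. TTGCGCAA stood somewhere between start and end in 15 of the 20.

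Offsets from the TSS were spread to both sides, and they differed by score. The centre lay downstream of the TSS in 340 regions (53.3%, 49.3 to 57.2%), upstream in 296 and on the TSS itself in 2. The median offset was 36.5 bp downstream, with quartiles at 256 bp upstream and 339.5 bp downstream. Within 250 bp of the TSS lay 282 centres (44.2%, 40.3 to 48.2%).

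Among the 102 regions with a score of at least 200 the median offset was 69.0 bp upstream, 40.2% of centres (30.6 to 50.4%) lay downstream, and 66.7% (56.6 to 75.7%) lay within 250 bp. Among the 404 regions under 100 the median was 72.0 bp downstream, 55.4% (50.5 to 60.4%) lay downstream, and 37.9% (33.1 to 42.8%) lay within 250 bp. The 250 bp upstream of the TSS held 135 centres, of which 29.6% scored at least 200, and the stretch from the TSS itself up to 250 bp downstream held 147, of which 19.0% did. From 250 to 500 bp downstream this share was 5.13%, against 16.5% in the same distance upstream. Across the 638 regions of this library, the Spearman correlation of score with distance to the TSS was -0.201, given as a description.

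**Figure D2:**
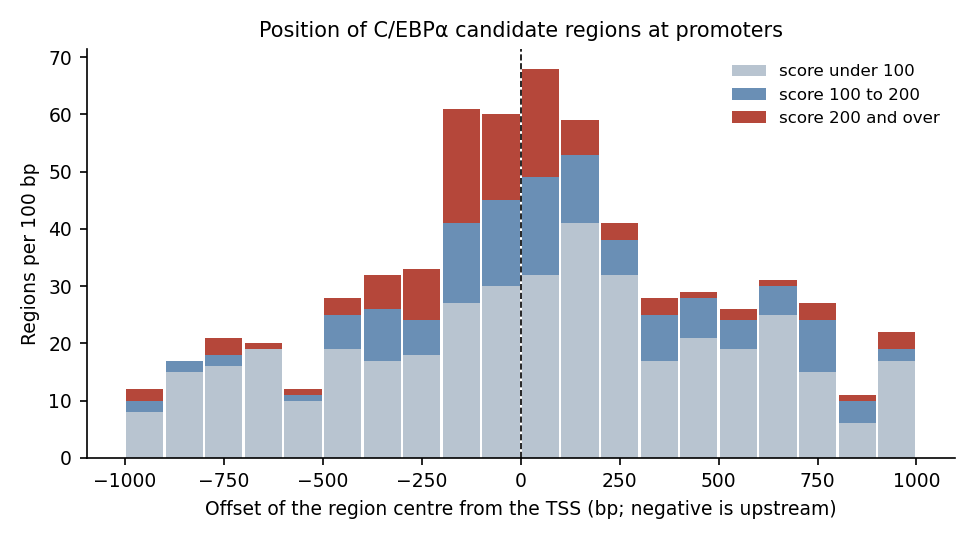
Number of promoter regions per 100 bp (y axis) by the strand-aware offset of the region centre from the TSS (x axis, bp, negative is upstream), stacked by score class; the dashed line marks the TSS. Regions with a score of 200 and over gather within 250 bp of the TSS, 40 of them in the 250 bp upstream and 28 from the TSS itself up to 250 bp downstream.

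By the exon structure of the nearest gene's longest transcript, 296 centres lay upstream, 88 in the 5′ UTR, 118 in coding exons, 122 in introns and 5 in exons of transcripts without coding sequence. Another 8 lay past the end of a short transcript and 1 in a 3′ UTR. Almost all intron centres, 118 of 122, were in intron 1. High scores were spread unevenly over these places. A score of at least 200 was carried by 20.3% of the upstream regions (15.8 to 25.3%), 22.7% of those in the 5′ UTR (14.5 to 32.9%) and 12.3% of those in introns (7.05 to 19.5%). In coding exons it was carried by 3 of 118 (2.54%, 0.527 to 7.25%).

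The distance of 1000 bp cut through an even spread of regions, with 33 centres between 900 and 1000 bp and 30 in the next 100 bp. Just inside were Pax6, a transcription factor of eye development, at 996 bp upstream with a score of 60.2, and Gm10073 and Zscan29, both at 994 bp downstream, with 66.1 and 62.9. Just outside were Pabpc1, the poly(A)-binding protein, at 1003 bp downstream with 121, Igf2, a growth factor gene, at 1005 bp upstream with 110.1, and Stat3, the transcription factor of IL-6 signalling, at 1011 bp downstream with 77.7.

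The share of promoter regions at CpG-rich promoters rose with the score. A promoter was called CpG-rich where a window of 500 bp between 700 bp before and 200 bp after the TSS had a GC content over 55% and a ratio of observed to expected CpGs over 0.75, and CpG-poor where no window had a ratio over 0.48. The nearest promoter was CpG-rich for 264 regions (41.4%, 37.5 to 45.3%), intermediate for 168 (26.3%) and CpG-poor for 206 (32.3%, 28.7 to 36.1%). Over all 22367 protein-coding genes the shares were 35.7%, 24.4% and 39.9%. The order of the classes depended on the rule, since the CpG-rich share was 28.6% with the TSS of any transcript and 27.1% by the 500 bp around the region centre.

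Under a score of 100, 34.7% of the promoter regions (30.02 to 39.5%) were at CpG-rich and 40.1% (35.3 to 45.1%) at CpG-poor promoters. From 200 upwards 60.8% (50.6 to 70.3%) were at CpG-rich and 9.80% (4.80 to 17.3%) at CpG-poor promoters. The median score was 95.9 at CpG-rich, 87.7 at intermediate and 70.3 at CpG-poor promoters. Counted by gene, 0.877% of all CpG-rich genes (0.684 to 1.11%) had a promoter region with a score of at least 200, against 0.623% of intermediate and 0.112% (0.0538 to 0.206%) of CpG-poor genes.

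**Figure D3:**
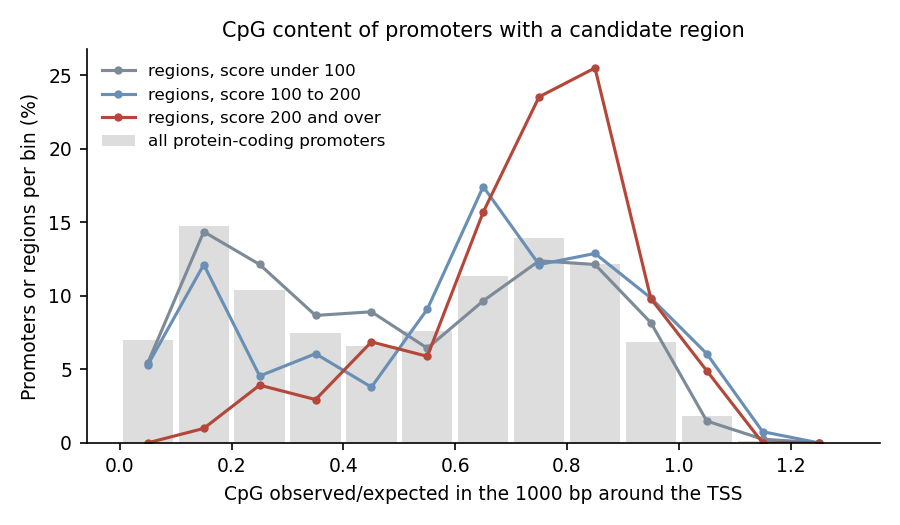
Percent of promoters or regions (y axis) by the ratio of observed to expected CpGs in the 1000 bp around the TSS (x axis); grey bars are all protein-coding promoters and lines are promoter regions by score class. All promoters form a low and a high peak, and regions with a score of 200 and over lie mostly in the high one, with a median ratio of 0.782.

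Position also differed between the classes. At CpG-rich promoters the median offset was 71.5 bp upstream and 40.9% of centres (34.9 to 47.1%) lay downstream. At CpG-poor promoters the median was 159.5 bp downstream and 67.0% (60.1 to 73.4%) lay downstream. Of these 206 CpG-poor regions, 25 were at olfactory receptor genes and 67 had their centre in a coding exon. In the 500 bp around the region centre itself, the median CpG ratio was 0.563 and the median GC content 56.4%, against 0.195 and 49.2% in the other candidates. Across the 638 regions, which share 1 library, the Spearman correlation of score with the CpG ratio of the promoter was 0.235.

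Among CpG-poor promoters, Fut7 and Plscr4 had the highest scores. After them came Nfe2 with a score of 720, the gene of a leucine zipper factor of platelet and red cell formation, with its centre 34 bp downstream of the TSS and a C/EBP word 0.5 bp from the region centre. Dhrs9, a retinol and steroid dehydrogenase, had 661 with its centre in the 5′ UTR and no C/EBP word. Ptges, the prostaglandin E synthase, had 324 and a C/EBP word starting 71 bp upstream of the TSS.

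For 29 of the regions the nearest gene belonged to a divergent pair. A pair of genes was called divergent where the TSSs lay on opposite strands, at most 1000 bp apart and pointing away from each other, and the share of regions whose nearest gene belonged to such a pair was 4.55% (3.07 to 6.46%). Over all protein-coding genes the share was 7.52%. A region between paired genes counts for its nearest gene only in this share. Counted by gene, 55 of 1681 genes in divergent pairs (3.27%, 2.47 to 4.24%) and 3.01% of the other genes (2.78 to 3.25%) had a region at the promoter. The regions fell on 28 of 848 pairs, and in 11 of the 29 the centre lay between both TSSs.

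With a score of at least 200, 9 of 102 regions (8.82%, 4.11 to 16.1%) lay at divergent pairs, against 14 of 404 (3.47%, 1.91 to 5.75%) under 100. The 7.52% of all protein-coding genes lies inside the first of these intervals. At CpG-rich promoters, 24 of 264 regions of any score (9.09%, 5.91 to 13.2%) lay at divergent pairs, against 16.7% of all CpG-rich genes. The pair with the highest score was Brp44 and Dcaf6, a cullin ligase adaptor gene, with TSSs 572 bp apart, and the centre lay 19 bp upstream of Brp44. Srsf2 and Mfsd11, a gene of the membrane transporter superfamily, are 726 bp apart, and Ikzf5 and Acadsb, a dehydrogenase of branched-chain amino acid breakdown, 80 bp apart. Spry4, an inhibitor of receptor tyrosine kinase signalling, and 9630014M24Rik are 266 bp apart, and their region scored 672 without any C/EBP word. Rhoa, the small GTPase that organises actin stress fibres, and Tcta are 254 bp apart, with a score of 520.

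Several regions touched more than 1 gene, and a few genes had more than 1 region. Of the 638 regions, 43 had 2 or more protein-coding TSSs within 1000 bp, and 5 genes had 2 regions. These 5 genes lie at 3 places. Snx5, a sorting nexin of endosomes, and its neighbour 8430406I07Rik shared regions with scores of 110.1 and 57.3. Fzd4, a Wnt receptor, and Tmem135 shared regions with 96.8 and 50.8. Klk1b4, a kallikrein gene, had regions with 88.5 and 71.4.

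The C/EBP word was found near the centre of 133 promoter regions (20.8%, 17.8 to 24.2%). All candidate regions carried it in 10.6% of cases, the other candidates in 10.2% (9.74 to 10.6%), and those between 1 and 5 kb from a TSS in 12.6%. Windows of the same 141 bp placed 1000 bp to each side of the promoter regions had it in 12.5% (10.8 to 14.5%), and such windows centred on the TSSs of all protein-coding genes in 6.23%. At CpG-rich promoters the word was in 25.8% of the regions (20.6 to 31.5%), against 2.93% of all CpG-rich TSSs. At CpG-poor promoters it was in 11.7% (7.61 to 16.8%), against 10.01% of all CpG-poor TSSs.

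The share with the word rose with the score, at promoters and elsewhere. It was 13.1% (9.98 to 16.8%) of the promoter regions under 100, 25.8% (18.5 to 34.1%) from 100 to 200 and 45.1% (35.2 to 55.3%) from 200 upwards. The other candidates had it in 9.09%, 11.9% and 47.0% (40.9 to 53.2%) of the same classes. Regions with the word had a median score of 118, against 76.8 for those without it.

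**Figure D4:**
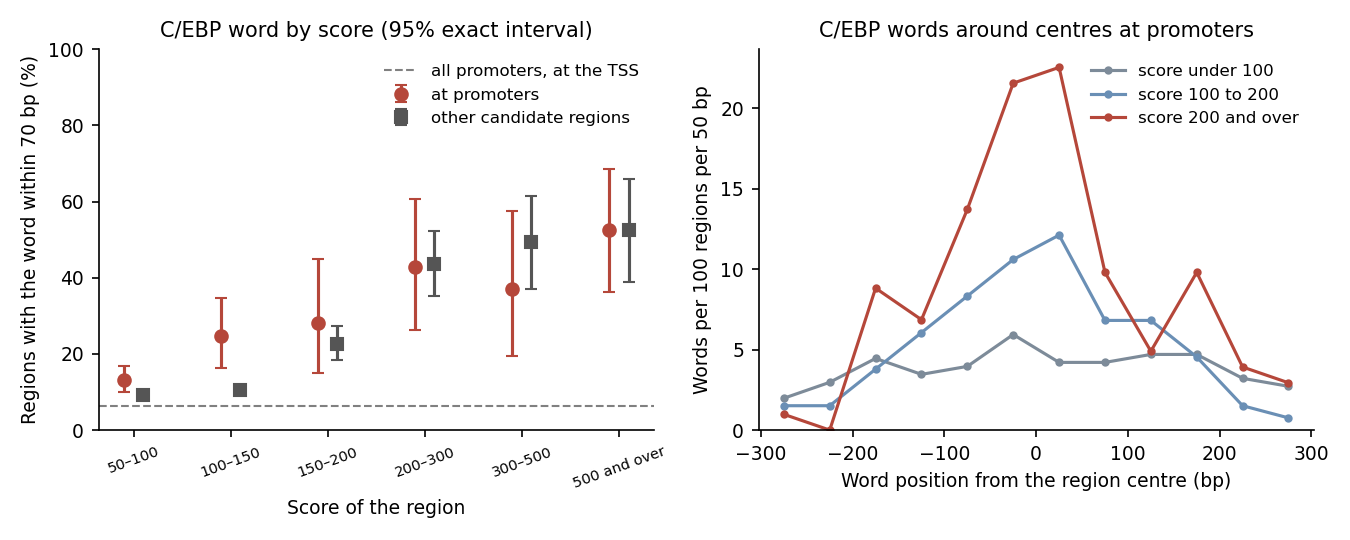
Left, share of regions with a C/EBP word within 70 bp of the centre (y axis, percent) by score (x axis) for promoter regions and other candidates, with 95% exact binomial intervals and the share at all TSSs as a dashed line (6.23%). Right, C/EBP words per 100 promoter regions in each 50 bp (y axis) by distance from the region centre in genome direction (x axis, bp), by score class; with a score of 200 and over there are 21.6 and 22.5 words in the bins next to the centre, under 100 there are 5.94 and 4.21.

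Taken over the whole length of a region, 85 of the 102 regions with a score of at least 200 held a C/EBP word (83.3%, 74.7 to 90.0%), as did 38.6% of those under 100. The share was close to the 80.5% (75.2 to 85.04%) of other candidates with such scores, and windows of 631 bp at all TSSs held the word in 29.6% of cases. Promoter regions with a score of at least 200 were also wider, with a median of 847.5 bp against 598 bp under 100. The word nearest to the centre was a median of 53.5 bp away in the former and 126.5 bp in the latter. In 60 of these 85 regions that word lay upstream of the TSS, in 38 of them within 250 bp of it. The palindrome TTGCGCAA was in 31 of the 102 regions (30.4%, 21.7 to 40.3%), in 19.5% (14.96 to 24.8%) of the other candidates with such scores and in 2.72% of the promoter regions under 100. At all TSSs, windows of 631 bp, close to the median width of all promoter regions, held it in 0.304%.

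Words of other promoter factors were counted on either strand in the same windows. Among promoter regions, 13.2% (10.6 to 16.04%) had the SP1 word CCCGCCC near the centre and the ETS word CGGAAG was in 10.8% (8.51 to 13.5%), against 1.15% and 3.13% of the other candidates. At all TSSs they were in 22.9% and 13.9%. From a score of 200 upwards, SP1 words were in 29.4% (20.8 to 39.3%) and ETS words in 21.6% (14.0 to 30.8%) of the promoter regions, and in 1.504% and 6.77% of the other candidates. The RUNX word TGTGGT was in 4.90% (1.61 to 11.1%) of these promoter regions, in 15.2% (9.51 to 22.4%) of those from 100 to 200, and in 16.9% of the other candidates from 200 upwards.

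The NF-Y word CCAAT was in 15.5% of the promoter regions, 18.7% of the other candidates and 19.3% of all TSSs. Over all scores the RUNX word was in 9.09%, 12.2% and 7.17%. Less frequent in promoter regions were the E-box CACGTG with 5.799%, the joint ATF4 and C/EBP word TGATGCAA with 2.04%, the NRF1 word GCATGCGC with 1.25%, the YY1 word AAGATGGC with 1.10% and the cAMP response element TGACGTCA with 0.940%. At all TSSs these were in 4.26%, 0.349%, 2.06%, 2.43% and 1.58%. On its other strand TGATGCAA reads TTGCATCA and so shares TTGC with the C/EBP word, and TTGCGCAA is a case of TTGCNNAA. In 54.5% of the promoter regions (50.6 to 58.5%) none of the C/EBP, ETS, SP1 and NF-Y words lay in the window, and in 27.5% of those with a score of at least 200.

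Of the 22367 protein-coding genes, 678 had a candidate region within 1000 bp of the TSS (3.03%), 114 of them with a score of at least 200 (0.510%). Gene lists were read against these shares. Each count is of the listed genes only, and genes of the same class outside a list are not counted. Over the union of 20 lists the share was 3.5% (77 of 2200 genes, 2.77 to 4.36%).

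**Figure D5:**
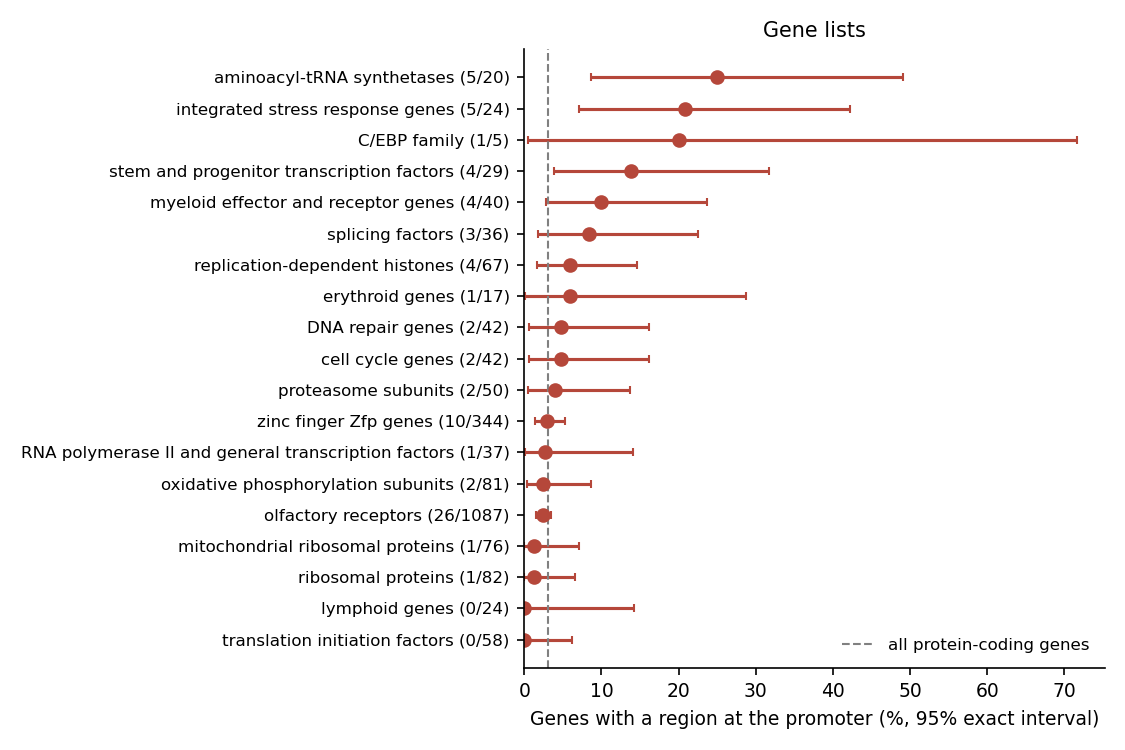
Percent of the genes of each list with a candidate region at the promoter (x axis); points are shares with 95% exact binomial intervals, labels give genes with a region over genes in the annotation, and the dashed line is the share of all protein-coding genes (3.03%). The aminoacyl-tRNA synthetases (25%) and integrated stress response genes (20.8%) have the highest shares. The lists were chosen with earlier results of these data known, and no allowance is made for their number.

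Aminoacyl-tRNA synthetases, which load amino acids onto tRNAs, had a region at 5 of 20 genes (25%, 8.66 to 49.1%). These were Iars for isoleucine (727), Nars for asparagine (317), Aars for alanine (286), Sars for serine (169) and Gars for glycine (66.9). None of the 5 regions had a C/EBP word within 70 bp of the centre. Between start and end, 2 held a C/EBP word, against 48.7% of all promoter regions. By the same wider count, 4 held the joint ATF4 and C/EBP word TGATGCAA. Integrated stress response genes, which ATF4 and its partners induce when translation is reduced, had a region at 5 of 24 (20.8%, 7.13 to 42.2%). Ddit3, which encodes the C/EBP family member CHOP, scored 241 and Herpud1, a gene of protein degradation at the endoplasmic reticulum, 217. Trib3, a pseudokinase gene that CHOP and ATF4 induce, scored 129, Shmt2, a mitochondrial enzyme of serine metabolism, 111 and Chac1, a glutathione-degrading enzyme, 69.4. Between start and end, 3 of these 5 regions held a C/EBP word and 4, all but Trib3, held TGATGCAA.

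The counts over whole regions for this word were chosen after the data were seen. By the same count it was in 29 of all 638 promoter regions (4.55%, 3.07 to 6.46%), in 2.18% of the other candidates and in 1.39% of windows of 631 bp at all TSSs. The sequences at Ddit3, Herpud1 and Chac1, where the word lies upstream of the TSS, are shown in mm9 on the strand of the gene, with the word in capitals.
Ddit3, chr10:126727532-126727571, plus strand: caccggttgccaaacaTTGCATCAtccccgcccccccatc
Herpud1, chr8:96910201-96910240, plus strand: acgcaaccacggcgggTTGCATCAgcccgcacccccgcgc
Chac1, chr2:119176769-119176808, plus strand: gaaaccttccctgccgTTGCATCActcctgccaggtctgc

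Among transcription factors of stem and progenitor cells, 4 of 29 genes had a region (13.8%, 3.89 to 31.7%). Within 500 bp there were 2, against 2.07% of all genes, and within 2000 bp 7. Tal1, a regulator needed for blood formation, scored 586 with its centre 515 bp downstream of the TSS in intron 1, and Sfpi1, the gene of PU.1, 188 at 726 bp downstream, also in intron 1. Meis1, a homeobox gene of stem cell self-renewal, scored 172 with its centre 27 bp upstream, and Ikzf1, the gene of Ikaros, 52.4 at 8 bp downstream. In the C/EBP family, 1 of 5 annotated genes had a region, Ddit3, and Cebpa, Cebpb, Cebpe and Cebpg had none.

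Of 40 myeloid effector and receptor genes, 4 had a region (10%, 2.79 to 23.7%). Csf3r, the receptor of the granulocyte growth factor G-CSF, scored 299 with its centre 87 bp downstream of the TSS, and Il6ra, the IL-6 receptor, 262 at 240 bp upstream. Itgal, the integrin chain of LFA-1, scored 93.95 and Lyz2, the macrophage lysozyme, 66.2. Granule genes such as Mpo, Elane, Prtn3 and Ctsg had none. With a score of at least 100 the count is 2. Listed lymphoid genes had a region at 0 of 24 (upper limit of the interval 14.2%) and at 1 within 2000 bp. Lymphoid genes outside the list, among them Vpreb3 (64.2) and Ighv1-73 (92.25), had a region. Of 17 listed erythroid genes, 1 had a region, Nfe2.

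Of the 36 listed splicing factors, 3 had a region (8.33%, 1.75 to 22.5%), and these 3 had a C/EBP word near the centre. Sf3b2, a subunit of the U2 particle, scored 397 and Prpf31, of the tri-snRNP, 57.2, after Srsf2. Rbm39 is not on this list, and its region held no C/EBP word.

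Of the 42 listed DNA repair genes, 2 had a region (4.76%), Rad23b and the checkpoint kinase gene Chek1 (131). Dclre1c, the Artemis gene with a score of 1029, is not on this list. Listed cell cycle genes also had 2 of 42, the replication helicase subunit Mcm3 (349) and Cdkn1b, the inhibitor p27 (139). Of 67 replication-dependent histone genes, 4 had a region (5.97%, 1.65 to 14.6%). Hist2h2aa1 and Hist2h3c1 shared a region with a score of 145, Hist2h2aa2 had 102 and Hist3h2a 53.4. General transcription factors and RNA polymerase II subunits had 1 of 37, Gtf2f1, a subunit of TFIIF, with a score of 682, and 2 within 2000 bp.

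Of large gene families, ribosomal protein genes had a region at 1 of 82 (1.22%, 0.0309 to 6.61%), Rps29 with a score of 378, and mitochondrial ribosomal proteins 1 of 76, Mrpl15 with 83.5 and its centre on the TSS. Translation initiation factors had 0 of 58 (upper limit 6.16%). Within 2000 bp the mitochondrial ribosomal proteins had 4 of 76 and the initiation factors 2 of 58, against 4.49% of all genes. Oxidative phosphorylation subunits had 2 of 81, Cox7a2 (167) and Uqcrfs1 (87.7), and the proteasome 2 of 50, Psmb3 (566) and the assembly chaperone Psmg1 (63.5). Within 500 bp the proteasome had 1. Zinc finger genes named Zfp and a number, without a further letter, had 10 of 344 (2.91%, 1.403 to 5.28%), led by Zfp740 (322), Zfp1 (114), Zfp212 (90.5) and Zfp341 (83.6). This count was 5 within 500 bp, 16 within 2000 bp and 2 with a score of at least 100.

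Olfactory receptor genes, which code for odour receptors of the nose, had a region at 26 of 1087 (2.39%, 1.57 to 3.49%), and none of them scored 200 or more. Within 500 bp there were 12, against 2.07% of all genes, and with a score of at least 100 there were 10, against 1.14%. Their scores ran from 52.0 to 125, with Olfr507 (125), Olfr1346 (121), Olfr593 (117) and Olfr1494 (115) highest. In 25 of the 26 the promoter was CpG-poor and in 25 the centre lay downstream of the TSS. Centres in a coding exon were found in 24, which is part of the 118 coding exon centres given above.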

How the data were processed

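Alignment to mm9 and peak calling were done by the submitters, whose notes for this library name Bowtie 0.12.8, MACS 1.4.2 and bedtools 2.16.2. According to the paper, peaks were called against an IgG mock sample, and peak heights were then taken in each sample. It is not stated if the LSK libraries were pooled for calling. The authors deposited the regions with a score, used here only to describe and rank.

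Genes and sequence came from GENCODE and the genome of NCBIM37, which is mm9, and every region ended within its chromosome. Words, CpG classes, divergent pairs and offsets were computed in Python 3.11.15 with numpy 2.4.6, pandas 2.3.3 and scipy 1.17.1, and figures with matplotlib 3.10.9. The functions were tested on simulated data. No test was made, since there is 1 library and no group.

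Members and lists were chosen with earlier results of these data known. Genes named by rule were the 20 highest promoter regions by score, up to 4 genes per list, the 5 highest divergent pairs and CpG-poor regions, the 10 highest regions with a C/EBP word near the centre and upstream of the TSS, 5 genes with 2 regions, and regions next to 1000 bp. Gars and Chac1, each beyond the 4 of its list, and genes without a region were named after their values were seen. Some written symbols, among them Cebpd, Gfi1 and Sptb, were not found in the annotation, and in the list of RNA polymerase II genes 1 symbol stood for more than 1 gene. The RefSeq sequence tables are of another build and were not used. The report gives the result of each of the 20 lists but 1, which, like some genes and sequences chosen by these rules, is not reported here. Alternatives were other distances, TSSs, scores, words, windows, CpG rules and pair rules, and leaving out chromosomes X and Y.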

Additional observations from a re-analysis of the deposited data

How the results depend on the processing

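The number of promoter regions was 346 when the TSS had to lie between start and end, 1071 with the TSS of any transcript, 234 with a score of at least 100 and 102 with at least 200. With the TSS of any transcript the median score was 75.3, the share of genes 4.89%, the share at CpG-rich promoters 28.6% and the share with a C/EBP word 17.5%. At a distance of 500 bp the median score was 89.2, the share of genes 2.07% and that of listed genes 2.41%, and at 2000 bp the last shares were 4.49% and 4.68%. With a score of at least 100, the share of genes was 1.14%, of listed genes 1.95%, at CpG-rich promoters 53.0% and with a C/EBP word 34.2%. With at least 200, these were 0.510% of genes, 60.8% at CpG-rich promoters and 45.1% with a word, and 8.82% of regions were at divergent pairs and 40.2% centred downstream. CpG-rich shares were 27.1% by the 500 bp around the centre and 51.7% by a ratio over 0.6 and GC over 50%, a rule met by 44.8% of all genes. The word share was 33.5% within 150 bp, 48.7% anywhere in the region and 4.39% for TTGCGCAA. The other 33 values lay within the interval of the reported value, or within 1.5 times the count. Among them are 3, chosen after seeing the data, with olfactory receptor genes left out (51.5% downstream, 43.1% CpG-rich, median score 81.9). The count of genes in single lists moved by over 1.5 times, or from or to 0, in 16 of 60 cases.

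The TSS is that of an annotated transcript, and use of that start in LSK cells was not measured. Centres stand in for summits, and sequencing depth was not analysed here.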
